A study of Homo sapiens with 36 samples.

Results

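The cap-n-collar transcription factors NRF1 (gene NFE2L1), NRF2 (NFE2L2) and NRF3 (NFE2L3) and the genes that regulate or process them were followed by treatment in MDA-MB-231, a human triple-negative breast cancer line. The 10 genes were given by name, with no measured value in the rule, though earlier results of these data were known when they were chosen: the 3 factors, KEAP1, BACH1, the small MAF genes MAFF, MAFG and MAFK, and the NRF1-processing enzymes DDI2 and NGLY1. They are 10 of 54583 genes in each of 3 tables of read counts from polyA RNA-seq. All 10 passed the filter on low counts in every table. The study treated cells with SHP1705, which stabilizes the clock repressor cryptochrome, with a proteasome inhibitor, or with both.

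The MG132 set held SHP1705 at 10 µM together with MG132 at 100 nM, MG132 alone, SHP1705 alone and DMSO, all at 8 h. The carfilzomib sets, one at 8 h and one at 24 h, held SHP1705 at 10 µM together with carfilzomib at 10 nM, carfilzomib alone, SHP1705 alone and DMSO. Every group had 3 libraries, which makes 36 in all. Every drug was added from a DMSO stock, and the labels name no genetic change in any group. The study's design text mentions 3 independent experiments, which may mean the replicates or the 3 sets, and the labels do not say whether replicates were separate cultures, so a p-value here reflects only library-to-library spread, possibly of technical origin. The doses of the 2 inhibitors differ, and no test is made between them. Where values of the MG132 set and the carfilzomib set at 24 h stand side by side, inhibitor, dose, time and set differ together.

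The total count per library was between 34191153 and 39251609 in the MG132 set, 17781035 to 27670810 with carfilzomib for 8 h and 18864725 to 34008423 for 24 h. VIM, CD44, EGFR and MKI67, which mark this line, were present in every library, with VIM at 691 to 1318 CPM, the usual scaling of counts to library size. The hormone receptor genes ESR1 and PGR reached at most 0.444 and 0.268 CPM, CDH1 reached at most 2.10 CPM, and EPCAM lay between 5.99 and 26.3 CPM. In the carfilzomib set at 8 h, transcripts went against the labels. HSPA1A, a stress-inducible HSP70 gene, had 12020 to 23605 CPM in the libraries labelled combination 2 and 3, SHP1705 1 and DMSO 1 to 3, against 693 to 896 CPM in the other 6. PER3, a clock gene that was low in both SHP1705-treated groups of the other 2 sets, followed yet another split there. Results of that set are therefore given for each library as labelled, after the other 2 sets.

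NRF1 is made in the endoplasmic reticulum membrane and is degraded by the proteasome while the proteasome works. When proteasome activity falls, NGLY1 removes its sugars, the protease DDI2 cleaves it, and the released factor enters the nucleus and activates proteasome subunit genes. NRF2 is held for degradation by KEAP1, an adaptor of the CUL3 ubiquitin ligase, and once free it activates antioxidant and glutathione genes. Both factors bind antioxidant response elements as partners of a small MAF protein, and BACH1 is a heme-regulated repressor that competes for the same elements. Because much of this control acts on the proteins, transcript levels describe only 1 layer of it.

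Promoter windows from RefSeq (GRCh38.p14), 250 bases before to 50 after an annotated start, were found for 9 of the 10 genes, 16 windows in all. MAFK had no matching entry. They were searched on both strands for the antioxidant response element core TGACNNNGC, the heat shock element core GAANNTTC, the E-box CACGTG bound by the clock activators, the ATF4 site core TGATGNAA and the AP-1 site TGACTCA. The E-box reads the same on both strands, and AP-1 letters can begin an antioxidant response element core. The 4 windows below belong to MAFG and MAFF, the 2 members with the highest fold changes under SHP1705 plus MG132, and to KEAP1. Capitals mark the matched letters. The MAFG window is chr17:81927686-81927985 on the minus strand, the MAFF windows are chr22:38201744-38202043 and chr22:38202770-38203069 on the plus strand, and the KEAP1 window is chr19:10502722-10503021 on the minus strand.
MAFG window: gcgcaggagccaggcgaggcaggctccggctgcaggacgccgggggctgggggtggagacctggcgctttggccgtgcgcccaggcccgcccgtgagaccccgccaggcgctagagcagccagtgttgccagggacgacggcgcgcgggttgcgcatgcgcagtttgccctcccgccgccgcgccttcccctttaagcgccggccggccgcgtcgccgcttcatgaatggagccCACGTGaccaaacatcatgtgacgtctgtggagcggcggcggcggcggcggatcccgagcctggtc
MAFF window 1: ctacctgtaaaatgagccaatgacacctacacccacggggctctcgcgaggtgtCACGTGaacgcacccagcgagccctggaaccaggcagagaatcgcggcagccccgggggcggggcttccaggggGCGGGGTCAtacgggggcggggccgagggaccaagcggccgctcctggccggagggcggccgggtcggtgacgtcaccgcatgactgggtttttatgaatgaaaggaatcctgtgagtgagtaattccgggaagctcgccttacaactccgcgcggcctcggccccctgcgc
MAFF window 2: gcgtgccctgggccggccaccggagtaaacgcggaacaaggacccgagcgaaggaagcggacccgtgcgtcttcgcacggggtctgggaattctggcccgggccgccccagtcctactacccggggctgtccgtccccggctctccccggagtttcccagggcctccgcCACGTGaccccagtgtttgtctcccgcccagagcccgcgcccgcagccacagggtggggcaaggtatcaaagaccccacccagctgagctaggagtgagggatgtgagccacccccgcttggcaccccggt
KEAP1 window 2: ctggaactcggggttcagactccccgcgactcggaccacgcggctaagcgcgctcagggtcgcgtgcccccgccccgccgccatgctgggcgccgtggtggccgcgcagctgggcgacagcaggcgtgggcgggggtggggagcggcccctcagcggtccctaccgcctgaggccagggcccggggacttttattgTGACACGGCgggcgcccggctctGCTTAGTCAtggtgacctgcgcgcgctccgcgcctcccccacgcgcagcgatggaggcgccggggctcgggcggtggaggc

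Counted from the annotated start as 0, the MAFG E-box began at -16, and the MAFF E-boxes began at -196 in the first window and -81 in the second. The first MAFF window also held an antioxidant response element core, on the reverse strand, beginning at -122. The KEAP1 window held 2 such cores, beginning at -54 on the forward and -31 on the reverse strand. BACH1 had 1 AP-1 site in 1 of its 3 windows. No letters of these 5 motifs were found in the windows of NFE2L1, NFE2L2, NFE2L3, DDI2 or NGLY1. Of 35116 promoter windows of the same length, 13.3% held the antioxidant response element core, 6.77% the heat shock element core, 7.26% the E-box, 3.62% the ATF4 core and 4.95% the AP-1 site. A match is a description of the letters, not of binding.

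Per kilobase of exon, the untreated levels spanned a wide range. In the DMSO libraries of the MG132 set, NFE2L1 was the highest at 45.2 ± 1.01 CPM per kb (SD, n = 3), followed by NFE2L3 at 41.5 ± 0.853, KEAP1 at 27.5 ± 1.51 and NFE2L2 at 19.6 ± 0.639 CPM per kb. MAFG had 12.3 ± 0.331 and MAFK 7.49 ± 0.213 CPM per kb, ahead of MAFF at 4.84 ± 0.186. NGLY1 at 4.89 ± 0.244, BACH1 at 4.85 ± 0.146 and MAFF had overlapping ranges, and DDI2 was the lowest at 2.11 ± 0.136 CPM per kb. The ranges of the other neighbours in this order did not overlap. In the DMSO libraries of the carfilzomib set at 24 h, NFE2L1 was again highest (53.0 ± 0.624 CPM per kb) and DDI2 again lowest (1.90 ± 0.0723 CPM per kb). KEAP1 at 37.5 ± 0.676 stood above NFE2L3 at 28.6 ± 0.427 CPM per kb in that table. Levels were not tested between tables.

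The genes lie on 8 chromosomes in GRCh38.p14, and all 10 are annotated as protein-coding. NFE2L1 spans chr17:48048359-48061545 and MAFG chr17:81918270-81931244. NFE2L2 spans chr2:177230303-177264727, NFE2L3 chr7:26152198-26187137 and MAFK chr7:1530702-1543043. KEAP1 spans chr19:10486125-10503356, BACH1 chr21:29298922-29361894 and MAFF chr22:38201994-38216511. DDI2 spans chr1:15617458-15669044 and NGLY1 chr3:25718944-25790039. Exons of TMEM184A on the other strand overlap 18.2% of MAFK exon bases, and those of OXSM overlap 6.44% of NGLY1. On the same strand, RSC1A1 overlaps 15.3% of DDI2 and had at most 1 count in any library. That low count does not show how reads in the overlap were counted. AC019080.1, also on the same strand, overlaps 17.6% of NFE2L2 exon bases and was not among the counted genes. How the counting treated strand is not stated in the sources used, so reads in the overlaps of MAFK and NGLY1 cannot be assigned to either gene.

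SHP1705 together with MG132 changed all 10 genes at 8 h. Against DMSO, MAFG, MAFF, BACH1, MAFK, NFE2L2, NGLY1, KEAP1 and NFE2L1 rose and DDI2 and NFE2L3 fell, and in each of the 10 the 3 combination libraries lay beyond the 3 DMSO libraries. The 3 small MAF genes and BACH1 rose by 1.90-fold to 2.73-fold, and NFE2L2 rose by 1.66-fold, while NFE2L1 rose by 1.11-fold. These are calls at an adjusted p under 0.05 in the quasi-likelihood test of edgeR, with p-values adjusted by Benjamini-Hochberg over all 16591 genes tested. The background was high: 58.8% of all genes tested were called in this comparison, 29.2% as higher and 29.7% as lower, so a call alone does not set a member apart. The share of all genes whose combination and DMSO libraries did not overlap was not computed, so that count does not set the members apart either. The median log2 fold change was 0.48 over the 10 members and -0.01 over all genes tested. In bulk RNA, fewer cells of a kind and less RNA per cell cannot be told apart, and all values are relative to the other transcripts of a library.

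**Figure D1:**
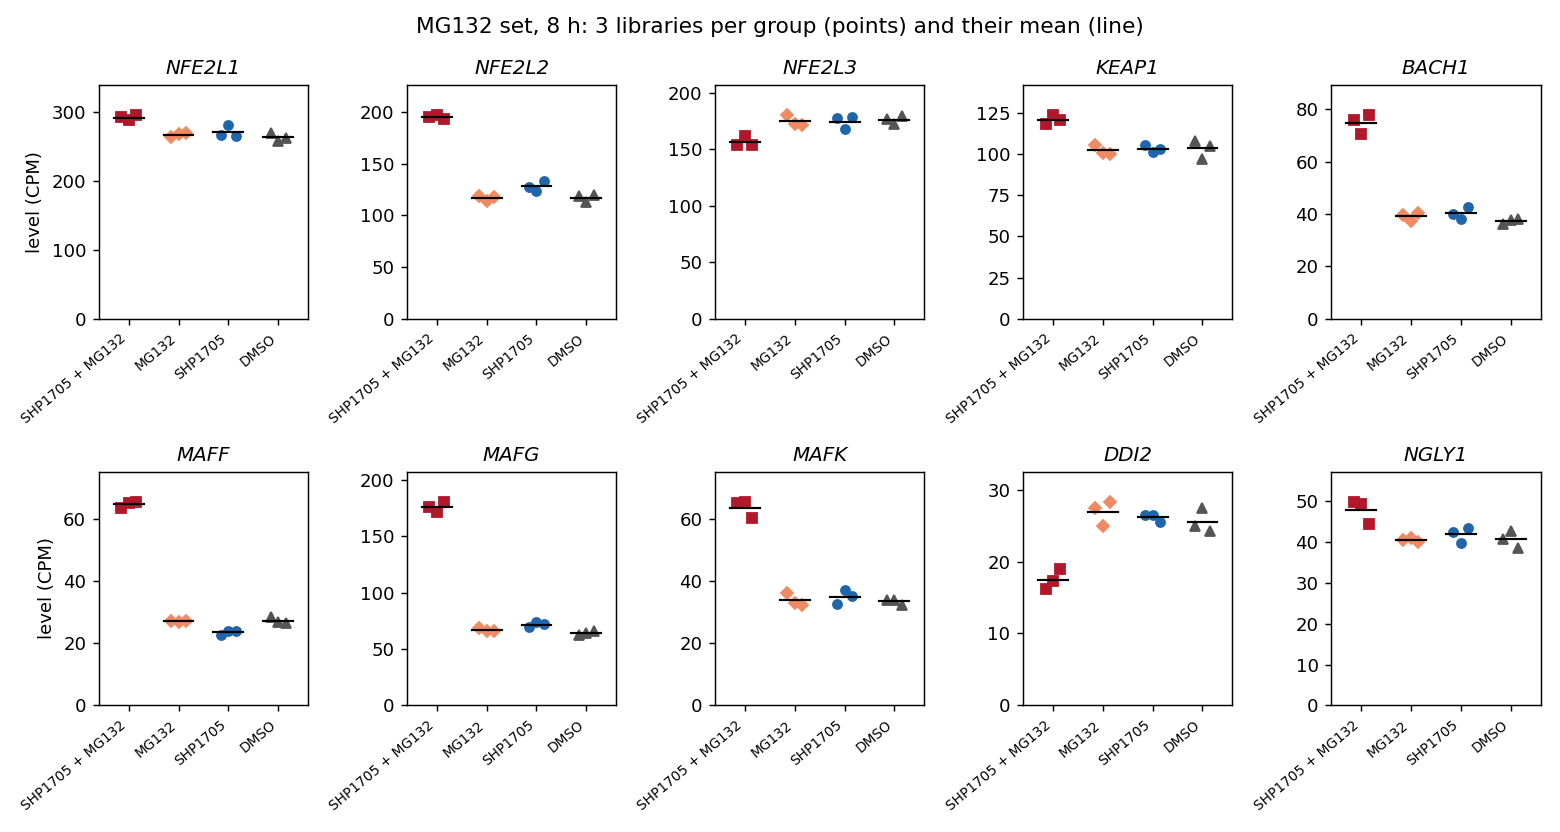
Level in CPM (vertical axis, from 0) of each of the 10 genes in the MG132 set at 8 h, with 3 libraries per group as points and their mean as a line. The combination stands above the other 3 groups for MAFG, MAFF, MAFK, BACH1 and NFE2L2 and below them for DDI2.

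MAFG, a small MAF partner that lacks a transactivation domain, had 176, 171 and 180 CPM in the combination libraries, 69.0, 66.4 and 66.2 CPM with MG132, 69.3, 73.6 and 72.2 CPM with SHP1705, and 62.7, 64.3 and 66.1 CPM with DMSO. The combination libraries stood far above the other 9, and the SHP1705 libraries lay just above those with DMSO. Its log2 fold change against DMSO was 1.45 ± 0.04 (SE, n = 3 each; edgeR adjusted p = 5.18e-17).

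MAFF, the stress-inducible small MAF, had 63.5, 65.2 and 65.4 CPM in the combination libraries, 27.2, 26.8 and 27.3 CPM with MG132, 22.8, 23.9 and 23.9 CPM with SHP1705, and 28.4, 26.7 and 26.4 CPM with DMSO. The combination was the highest group and SHP1705 alone the lowest, with no overlap between SHP1705 and DMSO. The log2 fold change of the combination against DMSO was 1.25 ± 0.04 (SE; edgeR adjusted p = 4.53e-15). MAFK, the third small MAF, had 65.0, 65.3 and 60.1 CPM in the combination libraries and 32.3 to 37.0 CPM in the other 9, a log2 fold change of 0.93 ± 0.05 against DMSO (SE; edgeR adjusted p = 1.65e-11).

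BACH1, the repressor of antioxidant response elements, had 76.1, 70.6 and 77.7 CPM in the combination libraries, 39.6, 37.5 and 40.6 CPM with MG132, 39.97, 38.2 and 42.6 CPM with SHP1705, and 36.1, 37.9 and 38.3 CPM with DMSO. The 3 single-treatment or untreated groups lay close together and the combination above them. Its log2 fold change against DMSO was 1.00 ± 0.05 (SE; edgeR adjusted p = 1.31e-12).

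NFE2L2, the NRF2 gene, had 194.7, 196.6 and 193.1 CPM in the combination libraries, 118.8, 114.2 and 117.7 CPM with MG132, 127.5, 123.5 and 133.3 CPM with SHP1705, and 118.8, 112.6 and 119.6 CPM with DMSO. The combination was clearly the highest group, and SHP1705 alone lay just above DMSO. The log2 fold change of the combination against DMSO was 0.74 ± 0.03 (SE; edgeR adjusted p = 5.90e-13). KEAP1, the repressor of the NRF2 protein, had 118.3, 123.5 and 120.9 CPM in the combination libraries and 97.2 to 108.2 CPM in the other 9, a log2 fold change of 0.22 ± 0.04 against DMSO (SE; edgeR adjusted p = 6.59e-05).

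NFE2L1, the NRF1 gene, moved least among the members that rose. It had 292, 289 and 295 CPM in the combination libraries, 264, 268 and 269 CPM with MG132, 267, 281 and 265 CPM with SHP1705, and 269.8, 258 and 262 CPM with DMSO. The combination libraries lay above the other 9 by a small margin. The log2 fold change against DMSO was 0.15 ± 0.03 (SE; edgeR adjusted p = 0.000176).

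The enzymes that process the NRF1 protein moved in opposite directions. DDI2, the protease, had 16.1, 17.3 and 19.0 CPM in the combination libraries, 27.5, 24.9 and 28.3 CPM with MG132, 26.4, 26.5 and 25.5 CPM with SHP1705, and 24.9, 27.4 and 24.3 CPM with DMSO, which is a log2 fold change of -0.54 ± 0.07 against DMSO (SE; edgeR adjusted p = 8.46e-07). NGLY1, the deglycosylating enzyme, had 49.7, 49.4 and 44.3 CPM in the combination libraries and 38.6 to 43.4 CPM in the other 9, a log2 fold change of 0.23 ± 0.05 (SE; edgeR adjusted p = 0.000712). NFE2L3, a related cap-n-collar gene, had 154.2, 162.0 and 154.1 CPM in the combination libraries and 167.7 to 180.0 CPM in the other 9, a log2 fold change of -0.17 ± 0.03 (SE; edgeR adjusted p = 0.000283). All 10 calls against DMSO also held with DESeq2, with any 1 library left out and in each other alternative fitted.

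MG132 alone at 100 nM gave no call among the 10 members by edgeR's test, none at an unadjusted p under 0.05 and none by DESeq2. The background was the same: 0.00% of all genes tested were called, in either direction. Of all 16591 genes tested, 1574 were at an unadjusted p under 0.05. Member log2 fold changes lay between -0.02 and 0.07. For MAFG the 3 MG132 libraries lay above the 3 DMSO libraries, with a log2 fold change of 0.06 ± 0.04 (SE; edgeR adjusted p = 0.663).

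SHP1705 alone gave small differences at 8 h. The calls were 3 of 10 members, against 7.53% of all genes tested (3.45% higher, 4.08% lower). MAFG and NFE2L2 rose, with log2 fold changes of 0.15 ± 0.04 (edgeR adjusted p = 0.0151) and 0.13 ± 0.03 (edgeR adjusted p = 0.0262), and MAFF fell, with -0.21 ± 0.05 (SE; edgeR adjusted p = 0.00769). For the other 7 members the SHP1705 and DMSO libraries overlapped. A fit without the 4 libraries outside the combination that carried over 100 counts of POSTN kept only SHP1705 replicate 1 and MG132 replicate 2 of those groups. The log2 fold changes there were 0.11 for MAFG, 0.12 for NFE2L2 and -0.25 for MAFF, and its calls are not counted. Leaving out 1 library left between 0 and 3 of the 3 calls.

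Against MG132 alone, the combination again differed in all 10 genes, 8 higher and 2 lower, with 57.2% of all genes tested called (28.2% higher, 28.9% lower). The log2 fold changes ran from -0.62 ± 0.07 for DDI2 to 1.39 ± 0.04 for MAFG (SE). The interaction term is the combination's log2 effect minus those of MG132 and SHP1705 given singly. It was called for 9 members, 7 higher and 2 lower, against 48.9% of all genes tested (24.7% higher, 24.2% lower).

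The interaction term was 1.47 ± 0.06 for MAFF and 1.23 ± 0.05 for MAFG, with edgeR adjusted p of 3.16e-13 and 3.21e-13. It was 0.85 ± 0.08 for MAFK, 0.83 ± 0.07 for BACH1, 0.61 ± 0.05 for NFE2L2 and 0.24 ± 0.06 for KEAP1 (SE). The terms of DDI2 at -0.65 ± 0.09 and NFE2L3 at -0.15 ± 0.05 were negative. NGLY1, at 0.20 ± 0.07 (edgeR adjusted p = 0.0318), lost its call in several alternatives, DESeq2 and no filter among them. Without the 4 libraries that carried POSTN, which left 1 SHP1705 and 1 MG132 library, its term was 0.15 and that of NFE2L3 was -0.16. NFE2L1 was not called, at 0.09 ± 0.04 (edgeR adjusted p = 0.0850), but was called at 0.11 without SHP1705 replicate 2.

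Other transcripts moved with the combination. HSPA1A had 38927, 40611 and 39707 CPM in the combination libraries, against 533 to 926 CPM in the other 9, and its part in the member results was not tested. POSTN, a matrix gene of fibroblasts, had 98.3, 222 and 242 CPM in the combination libraries, 33.6, 0.161 and 173 CPM with MG132, 0.267, 28.2 and 29.4 CPM with SHP1705, and 0.110 to 0.255 CPM with DMSO. The 7 stromal markers, all of them detected, summed to 120 to 267 CPM in the combination, 17.4 to 193 CPM with MG132, 16.6 to 52.1 CPM with SHP1705 and 17.1 to 17.8 CPM with DMSO. Without POSTN the sums were 21.4 to 24.8, 16.3 to 19.7, 16.3 to 22.7 and at most 17.6 CPM in the same groups. Outside those markers, CDKN2A, which this line has lost, had 3.08, 6.85 and 7.58 CPM in the combination, 0.578, 0.107 and 5.04 CPM with MG132, 0.0971, 0.761 and 0.751 CPM with SHP1705, and at most 0.0276 CPM with DMSO. CDH2 had 6.53, 16.7 and 15.7 CPM in the combination, 3.12, 0.562 and 11.7 CPM with MG132, 1.09, 2.47 and 2.95 CPM with SHP1705, and 1.55, 1.21 and 0.995 CPM with DMSO. Both genes, chosen after their values were seen, were highest in the libraries highest in POSTN. All 6 blood cell markers were detected in each group, summing to 4.27 to 6.44 CPM in the combination, 2.52 to 4.52 CPM with MG132, 1.34 to 3.57 CPM with SHP1705 and 3.74 to 4.56 CPM with DMSO. The MG132 library with 173 CPM of POSTN had 66.2 CPM of MAFG, 27.3 CPM of MAFF and 118 CPM of NFE2L2, against 66.4, 26.8 and 114 CPM in the MG132 library with 0.161 CPM of POSTN. BACH1 had 40.6 against 37.5 CPM and DDI2 28.3 against 24.9 CPM in the same libraries, and the remaining members are not set out. The MG132 library with 33.6 CPM of POSTN is left out here. With 1 library on each side, these values cannot show whether the members moved with POSTN. All 3 combination libraries carried POSTN, so its source and the drugs cannot be told apart, and its part in the member results was not tested.

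**Figure D2:**
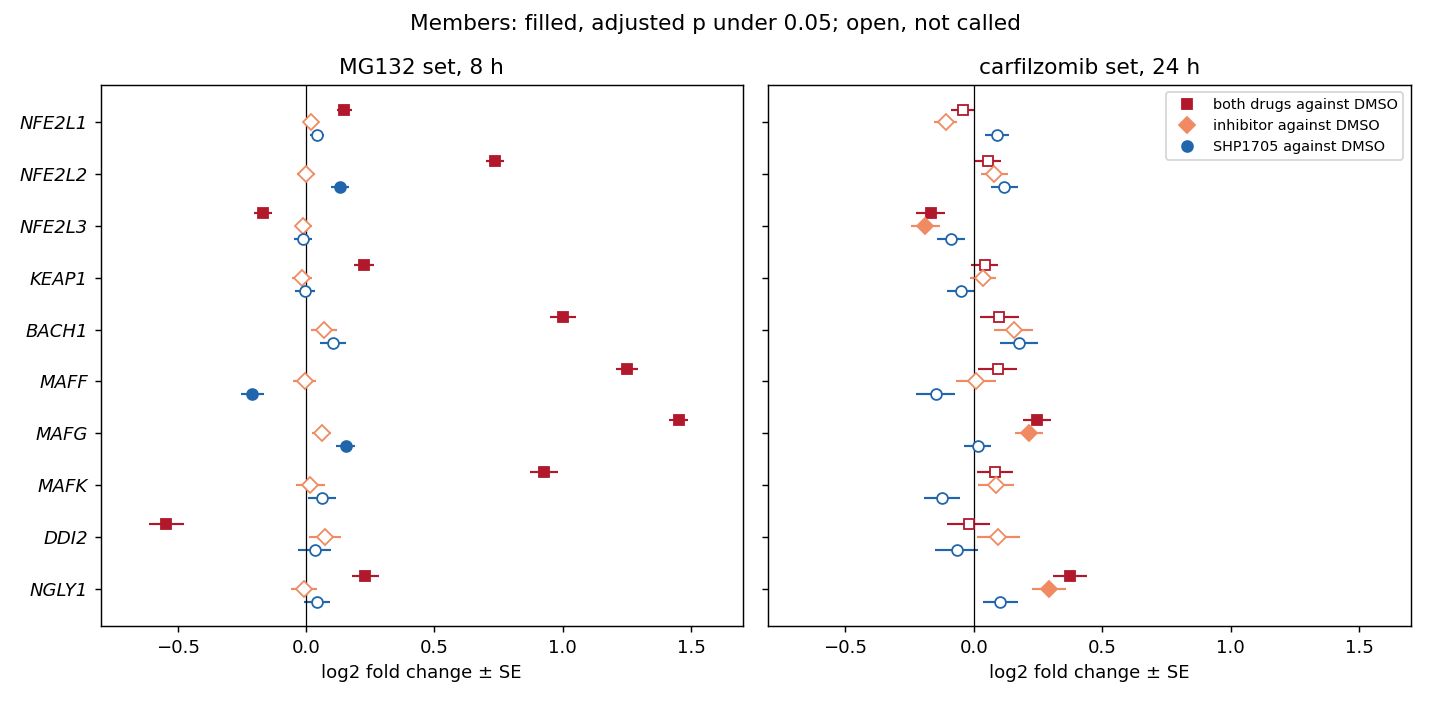
Log2 fold change against DMSO (horizontal axis) of each gene, with bars of 1 SE, in the MG132 set at 8 h and the carfilzomib set at 24 h, for both drugs, the inhibitor and SHP1705. Filled symbols passed an adjusted p under 0.05. At 8 h this was the case for all 10 genes with both drugs and for MAFG, NFE2L2 and MAFF with SHP1705. At 24 h it was the case for MAFG, NGLY1 and NFE2L3 with carfilzomib, with or without SHP1705.

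At 24 h, carfilzomib changed 3 members, with or without SHP1705. NGLY1 and MAFG rose and NFE2L3 fell, all by 1.30-fold or less, while NFE2L1, NFE2L2, KEAP1, BACH1, MAFF, MAFK and DDI2 were not called. The calls were 3 of 10 for carfilzomib plus SHP1705 against DMSO, where 27.3% of all genes tested were called (13.0% higher, 14.3% lower). They were 3 of 10 for carfilzomib alone, where 21.5% were called (10.1% higher, 11.4% lower). Both shares are near their background. These 2 comparisons share the DMSO libraries, so their likeness is not a separate result.

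NGLY1 had 51.4, 50.7 and 49.0 CPM in the combination libraries, 51.2, 44.5 and 47.4 CPM with carfilzomib, 39.4, 45.1 and 40.7 CPM with SHP1705, and 38.2, 39.6 and 38.7 CPM with DMSO. Both carfilzomib groups lay above DMSO without overlap. The log2 fold changes against DMSO were 0.37 ± 0.07 for the combination (edgeR adjusted p = 0.000191) and 0.29 ± 0.07 for carfilzomib (SE; edgeR adjusted p = 0.00306).

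MAFG had 115, 111 and 113 CPM in the combination libraries, 118, 111 and 104 CPM with carfilzomib, 95.8, 98.0 and 95.5 CPM with SHP1705, and 92.2, 99.9 and 94.1 CPM with DMSO. The carfilzomib groups lay above all 6 libraries without it. The log2 fold changes were 0.24 ± 0.05 for the combination (edgeR adjusted p = 0.00129) and 0.21 ± 0.05 for carfilzomib (SE; edgeR adjusted p = 0.00553).

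NFE2L3 had 111, 108 and 105 CPM in the combination libraries, 97.7, 106 and 117 CPM with carfilzomib, 116, 112 and 114 CPM with SHP1705, and 124, 121 and 120 CPM with DMSO. All 9 treated libraries lay below the 3 DMSO libraries. The log2 fold changes were -0.17 ± 0.06 for the combination (edgeR adjusted p = 0.0279) and -0.19 ± 0.06 for carfilzomib (SE; edgeR adjusted p = 0.0177). The combination call was lost without combination replicate 2 or 3 or any 1 of the DMSO libraries. The carfilzomib call was lost without DMSO replicate 1 or carfilzomib replicate 1, and in a fit of only both groups compared.

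**Figure D3:**
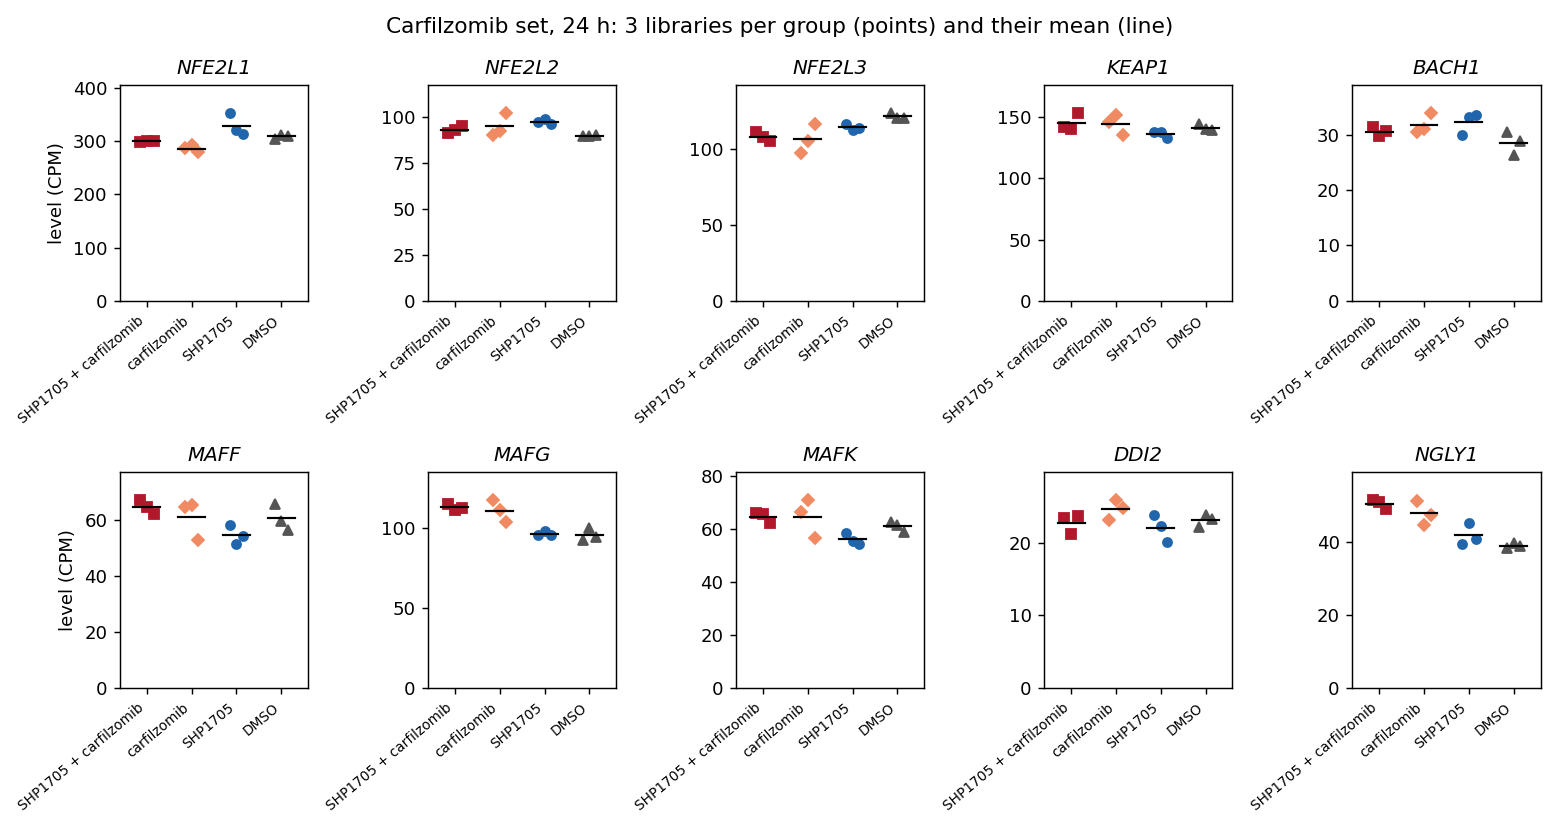
Level in CPM (vertical axis, from 0) of each of the 10 genes in the carfilzomib set at 24 h, with 3 libraries per group as points and their mean as a line. NGLY1 and MAFG are higher and NFE2L3 is lower in both carfilzomib groups than with DMSO, and the other genes were not called.

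The remaining 7 genes are described by their levels at 24 h. NFE2L1 had 299, 299.7 and 300.3 CPM in the combination libraries, 287, 292 and 279 CPM with carfilzomib, 352, 320 and 313 CPM with SHP1705, and 305, 312 and 309 CPM with DMSO. Its lowest values were in the carfilzomib libraries and its highest with SHP1705, with log2 fold changes of -0.11 ± 0.05 for carfilzomib (edgeR adjusted p = 0.0942) and 0.09 ± 0.05 for SHP1705 (SE; edgeR adjusted p = 0.344). NFE2L2 had 91.4, 92.7 and 95.3 CPM in the combination libraries, 90.1, 92.4 and 102 CPM with carfilzomib, 97.4, 98.8 and 96.3 CPM with SHP1705, and 89.5, 89.5 and 90.3 CPM with DMSO. The log2 fold changes of KEAP1, BACH1, MAFF, MAFK and DDI2 for the combination against DMSO lay between -0.02 and 0.10. MAFK was called for carfilzomib at 0.17 only when carfilzomib replicate 3, the lowest of the 3 carfilzomib libraries for this gene, was left out.

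SHP1705 alone at 24 h gave no call among the members by edgeR's test, 2 at an unadjusted p under 0.05 (NFE2L2 and BACH1) and none by DESeq2, against 4.46% of all genes tested (1.95% higher, 2.51% lower). Adding SHP1705 to carfilzomib gave no call against carfilzomib alone, none at an unadjusted p under 0.05 and none by DESeq2, with 9.02% of all genes tested called (4.36% higher, 4.67% lower). The interaction gave no call, 2 at an unadjusted p under 0.05 (BACH1 at -0.23 ± 0.11 and MAFF at 0.23 ± 0.11, SE) and none by DESeq2, with 0.482% of all genes tested called (0.210% higher, 0.272% lower). At an unadjusted p under 0.05, all 16183 genes tested counted 2668 for SHP1705 alone, 3746 for SHP1705 added to carfilzomib and 2202 for the interaction. HSPA1A had 1143 to 1290 CPM in the combination, 1046 to 1159 CPM with carfilzomib, 711 to 735 CPM with SHP1705 and 690 to 715 CPM with DMSO.

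In the carfilzomib set at 8 h, the levels of 8 of the 10 members split the libraries as HSPA1A did, and not by label, while NFE2L1 and DDI2 overlapped. The share of all genes that split the libraries in this way was not computed, so the count does not set the members apart. MAFG had 79.4, 193 and 206 CPM in the libraries labelled combination 1, 2 and 3, 82.3, 79.7 and 81.8 CPM in those labelled carfilzomib, 203, 88.5 and 80.4 CPM in those labelled SHP1705, and 196, 211 and 201 CPM in those labelled DMSO. The 6 libraries high in HSPA1A were all above 190 CPM of MAFG and the other 6 all below 90. BACH1 had 21.2, 41.4 and 40.4 CPM in the libraries labelled combination, 19.8, 24.0 and 26.2 CPM in those labelled carfilzomib, 61.8, 23.7 and 23.4 CPM in those labelled SHP1705, and 42.5, 50.9 and 55.5 CPM in those labelled DMSO. MAFF had 58.0, 99.1 and 109 CPM in the libraries labelled combination, 61.6, 51.6 and 52.2 CPM in those labelled carfilzomib, 103, 58.6 and 61.8 CPM in those labelled SHP1705, and 93.1, 128 and 131 CPM in those labelled DMSO. For both genes the same 6 libraries were the high ones.

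NFE2L2 had 101, 141 and 135 CPM in the libraries labelled combination, 98.1, 103 and 110 CPM in those labelled carfilzomib, 162, 105 and 104 CPM in those labelled SHP1705, and 142, 148 and 153 CPM in those labelled DMSO. NFE2L3 ran the other way, with 89.5, 70.5 and 68.3 CPM in the libraries labelled combination, 73.9, 83.5 and 84.5 CPM in those labelled carfilzomib, 67.3, 85.6 and 86.0 CPM in those labelled SHP1705, and 66.5, 64.8 and 61.5 CPM in those labelled DMSO. Every NFE2L3 value in a library high in HSPA1A was below every value in the other 6. NFE2L1 had 293, 320.1 and 325 CPM in the libraries labelled combination, 286, 306 and 297 CPM in those labelled carfilzomib, 296, 310.4 and 292 CPM in those labelled SHP1705, and 323, 336 and 335 CPM in those labelled DMSO. The library labelled SHP1705 1, high in HSPA1A, lay among those low in HSPA1A for NFE2L1. DDI2 ranged from 16.0 to 26.1 CPM over the 12 libraries, with overlap between those high and low in HSPA1A. Since groups were formed by labels alone, the 6 libraries high in HSPA1A were not tested as a group against the other 6. HSPA1A had 726 to 896 CPM in the libraries labelled carfilzomib and 14559 to 23605 CPM in those labelled DMSO. The test of carfilzomib against DMSO as labelled therefore also compares libraries low in HSPA1A with libraries high in it.

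**Figure D4:**
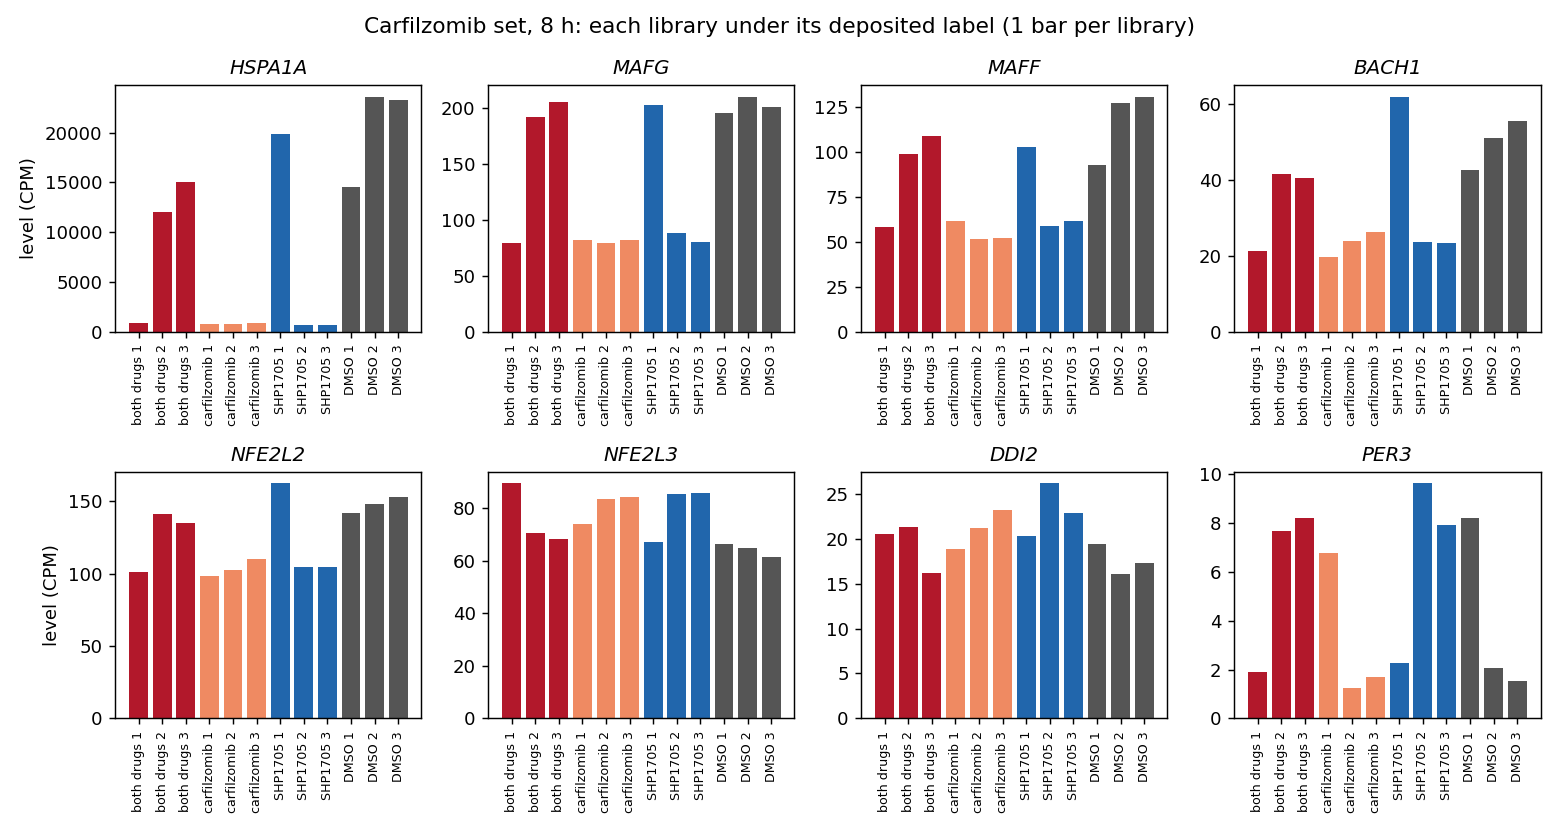
Level in CPM (vertical axis, from 0) in each of the 12 libraries of the carfilzomib set at 8 h, 1 bar per library in the order of its label. MAFG, MAFF, BACH1 and NFE2L2 are high in the 6 libraries where HSPA1A is high, NFE2L3 is low in them, and PER3 follows another split.

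As labelled, carfilzomib against DMSO at 8 h called 5 members, all lower, with 23.0% of all genes tested called (11.7% higher, 11.3% lower). The log2 fold changes were -1.32 ± 0.36 for MAFG, -1.09 ± 0.35 for BACH1, -1.09 ± 0.25 for MAFF, -0.51 ± 0.17 for NFE2L2 and -0.46 ± 0.13 for MAFK (SE), with edgeR adjusted p between 0.0400 and 0.0476. These directions rest on labels that HSPA1A goes against, and the 5 calls became 0 to 3 with 1 library left out and 0 with a replicate block. The other comparisons of that set called 0 members and 0.00% of all genes tested by edgeR. At an unadjusted p under 0.05 the members counted 0 for the library group labelled combination against that labelled DMSO, 4 for combination against carfilzomib, 6 for SHP1705 against DMSO and 8 for the interaction, and DESeq2 called 0, 0, 0 and 4. Of all 15577 genes tested by edgeR, 1454, 898, 2244 and 3951 were at an unadjusted p under 0.05, in that order. In a fit without the libraries labelled SHP1705 1 and combination 1, chosen after seeing the data because both stood apart from their groups, the member counts were 9 for carfilzomib, 9 for SHP1705 and 0 for the combination, each against DMSO, 7 for combination against carfilzomib and 10 for the interaction. The same fit called 7452, 5711, 0, 4284 and 7507 of all 15744 genes tested, in that order. Both libraries left out stood on the other side of the HSPA1A split from the rest of their groups. Without them every labelled group was wholly high or wholly low in HSPA1A. These counts therefore follow from that choice and are no evidence for the labelled treatments.

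The response to both drugs was also compared between 24 h and 8 h of carfilzomib in 1 model of both carfilzomib sets. Time and set differ together there and cannot be told apart. Of the members, NGLY1 alone was called, with the combination's log2 fold change against DMSO higher at 24 h than at 8 h by 0.48 ± 0.12 (SE; edgeR adjusted p = 0.0151), against 11.6% of all genes tested (4.96% higher, 6.61% lower). Its 2 components were 0.37 ± 0.07 at 24 h and -0.11 ± 0.11 at 8 h. The 8 h component rests on the labels that HSPA1A goes against, and the call was lost without the 8 h library labelled DMSO 2.

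Genes that the factors are known to activate were counted from lists chosen with earlier results of these data known. The 33 proteasome genes of the NRF1 list all rose with SHP1705 plus MG132 against DMSO, with a median log2 fold change of 0.81, and all 33 rose at 24 h, with a median of 0.80 both for carfilzomib plus SHP1705 and for carfilzomib alone. The shares of all genes called were the 58.8%, 27.3% and 21.5% given above. As labelled at 8 h, where HSPA1A goes against the labels, carfilzomib against DMSO had 0 proteasome genes higher and 32 lower (median -0.84), and 0 of the NRF2 targets higher and 17 lower, against 23.0% of all genes. The medians of all genes tested were within 0.01 of 0 in the first 3 comparisons. With SHP1705 alone in the MG132 set, 0 proteasome genes were higher and 7 lower, against 7.53% of all genes called (3.45% higher, 4.08% lower). The PSMB7 call among them was lost without DMSO replicate 1 or 2 or SHP1705 replicate 3. At 24 h SHP1705 alone gave no call in this list, against 4.46%. With MG132 alone 0 proteasome genes were called, 5 at an unadjusted p under 0.05, against 1574 of all 16591 genes tested. NFE2L1 transcript rose by 1.11-fold with SHP1705 plus MG132 and was not called with carfilzomib at 24 h, with or without SHP1705.

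PSMC4, an ATPase subunit of the proteasome's base, had 362, 380.3 and 390 CPM in the combination libraries of the MG132 set, against 119.5, 120.1 and 123.5 CPM in the DMSO libraries, a log2 fold change of 1.64 ± 0.04 (SE; edgeR adjusted p = 4.43e-18). At 24 h it had 552, 554 and 559 CPM with carfilzomib plus SHP1705, 432, 488 and 499.6 CPM with carfilzomib, and 187, 189 and 199 CPM with DMSO. Both carfilzomib groups stood clear of DMSO. The core subunit gene PSMB2 at 24 h had 424, 430 and 436 CPM with both drugs, 434, 437 and 443 CPM with carfilzomib, and 213, 214 and 217 CPM with DMSO. Its groups with carfilzomib overlapped each other and not DMSO.

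Of the 28 NRF2 and antioxidant response element targets, 21 rose and 2 fell with SHP1705 plus MG132 (median log2 fold change 0.61), against 58.8% of all genes called. SLC7A11, the cystine transporter, had 334, 353 and 356 CPM in the combination libraries, against 45.7, 46.9 and 52.5 CPM with DMSO, a log2 fold change of 2.85 ± 0.05 (SE; edgeR adjusted p = 7.85e-19). GCLM, a subunit of the glutathione-synthesizing ligase, rose by 1.95 ± 0.04, SRXN1 (sulfiredoxin) by 1.89 ± 0.03 and TXNRD1 (thioredoxin reductase) by 1.49 ± 0.02 on the log2 scale (SE). The 2 that fell were AKR1C3 at -0.23 ± 0.05 and NQO1 at -0.14 ± 0.03, which are named because they were the exceptions. NQO1, the quinone reductase often used as an NRF2 readout, had 241.5, 242.3 and 251 CPM in the combination libraries, against 267.5, 269.2 and 271.3 CPM with DMSO.

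At 24 h, 15 of the 28 rose and 4 fell with carfilzomib plus SHP1705 (median 0.25), against 27.3% of all genes called. With carfilzomib alone 16 rose and 3 fell (median 0.29), against 21.5%. AKR1B10, an aldo-keto reductase, had 25.9, 26.0 and 27.4 CPM with both drugs, 21.3, 22.5 and 23.8 CPM with carfilzomib, and 0.916, 1.09 and 1.18 CPM with DMSO, log2 fold changes of 4.64 ± 0.13 and 4.41 ± 0.13 (SE; edgeR adjusted p = 8.81e-17 and 3.25e-16). AKR1B10 and AKR1C3 have close paralogs that may share reads with them, as HSPA1A does with HSPA1B, so these values are uncertain as to the gene. BLVRB, biliverdin reductase B, rose by 1.17 ± 0.05 with both drugs and by 1.18 ± 0.05 with carfilzomib on the log2 scale (SE). Against carfilzomib alone, both drugs gave 1 target higher (FTH1 at 0.33 ± 0.09, with overlapping groups, named after its value was seen) and 6 lower, with 9.02% of all genes called. The lower ones included OSGIN1 (-1.27 ± 0.10), SLC7A11 (-0.49 ± 0.11), SRXN1 (-0.35 ± 0.06) and NQO1 (-0.24 ± 0.06, SE), while none of the 10 members was called in that comparison. The NQO1 call there was lost without combination replicate 1.

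SHP1705 alone also moved part of the NRF2 list. In the MG132 set 7 targets rose and 3 fell, against 7.53% of all genes called, led by OSGIN1, an oxidative stress-induced growth inhibitor, which fell to 10.4, 10.7 and 10.7 CPM with SHP1705, against 14.4, 15.6 and 17.3 CPM with DMSO. GCLM rose by 0.26 ± 0.04, TRIM16 by 0.22 ± 0.03 and SLC7A11 by 0.35 ± 0.06 on the log2 scale (SE). Without the 4 libraries that carried POSTN, which left 1 SHP1705 library, TRIM16 was at 0.18. At 24 h 2 rose and 1 fell, against 4.46% of all genes called, with OSGIN1 at 7.50, 8.71 and 9.07 CPM with SHP1705, against 20.4, 22.2 and 22.7 CPM with DMSO (log2 fold change -1.36 ± 0.11, SE; edgeR adjusted p = 9.78e-09). TXNRD1 rose by 0.30 ± 0.04 and AKR1C3 by 0.51 ± 0.07 on the log2 scale (SE).

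**Figure D5:**
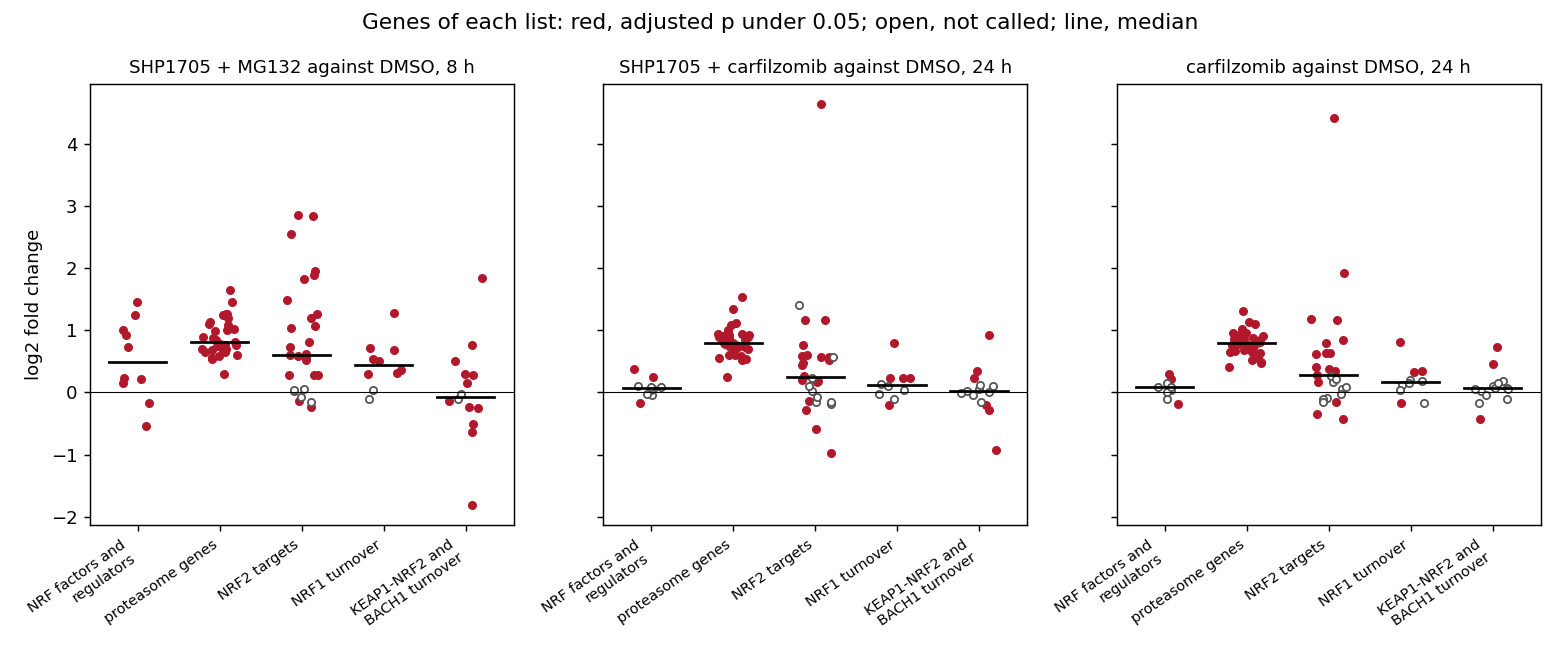
Log2 fold change (vertical axis) of each gene of the 10 members and of 4 lists, for SHP1705 plus MG132 at 8 h and for SHP1705 plus carfilzomib and carfilzomib alone at 24 h, all against DMSO; red points passed an adjusted p under 0.05, open points did not, and lines are medians. The proteasome genes all lie above 0 in the 3 panels, while the members' median is 0.48 in the first panel and under 0.1 in the other 2. Inhibitor, dose, time and set differ between the first panel and the other 2, which were not tested against it.

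Genes that act on the factors' proteins were counted in the same way. Of 10 genes for NRF1 turnover and modification, 8 rose with SHP1705 plus MG132, and at 24 h 4 rose and 1 fell with both drugs, and 3 rose and 1 fell with carfilzomib. The shares of all genes called were 58.8%, 27.3% and 21.5% in these comparisons. VCP, the segregase that pulls NRF1 out of the membrane, had 1243, 1292 and 1296 CPM in the MG132 combination libraries, against 527.5, 528.5 and 530.1 CPM with DMSO. Its log2 fold changes were 1.27 ± 0.03 there, and 0.80 ± 0.04 with both drugs and 0.81 ± 0.04 with carfilzomib at 24 h (SE). The shuttle gene RAD23B rose by 0.71 ± 0.03, 0.23 ± 0.04 and 0.35 ± 0.04 in the same 3 comparisons.

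Of 14 genes for KEAP1-NRF2 and BACH1 turnover, 6 rose and 6 fell with SHP1705 plus MG132. At 24 h 3 rose and 3 fell with both drugs, and 2 rose and 1 fell with carfilzomib. Set against the same 58.8%, 27.3% and 21.5%, the 3 of 14 called with carfilzomib were near the background. SQSTM1, the autophagy receptor p62 that binds KEAP1, had 1369, 1375 and 1413 CPM in the MG132 combination libraries, against 377, 393.4 and 394.0 CPM with DMSO, a log2 fold change of 1.84 ± 0.03 (SE; edgeR adjusted p = 2.17e-20). AMER1, a KEAP1-binding protein of the WNT pathway, fell to 1.84, 2.01 and 2.15 CPM, against 6.44, 7.23 and 7.38 CPM with DMSO. At 24 h SQSTM1 rose by 0.92 ± 0.04 with both drugs and by 0.73 ± 0.04 with carfilzomib on the log2 scale (SE). None of the 5 tested genes among the other cap-n-collar and large MAF factors was called with SHP1705 plus MG132, and none reached an unadjusted p under 0.05, while DESeq2 and the fit with no filter on low counts each called 1.

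Across the 36 libraries, with each table centred on its own mean, the log2 levels most like those of NFE2L2 belonged to SLC7A11 (Pearson r = 0.98), DNAJB4 (0.98) and ACBD3 (0.98). Those most like MAFF were CCN1 (0.98), ZFAND3 (0.98) and GADD45A (0.98). For NFE2L1 they were TMEM63B (0.87), PLOD1 (0.84) and BAP1 (0.84). The comparison covered 10109 genes with a mean of at least 5 CPM in every table. Libraries of a table share their set and, in groups, their treatment, so these values only describe likeness.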

How the data were processed

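RNA from MDA-MB-231 cells was sequenced as polyA libraries. The authors deposited whole-number read counts per gene in 3 tables. Per the submitters' processing notes, the tools were Trimmomatic, FastQC, HISAT2 and featureCounts with hg38; the strand setting is not given in the sources used here. Groups came from the labels. The members and gene lists were chosen with earlier results of these data known. List genes were named by rule, up to 4 called genes per list and comparison by the smallest p among those whose groups did not overlap; NQO1 and AKR1C3 under SHP1705 plus MG132 are outside that rule and were chosen after their values were seen.

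Each table was fitted separately over 4 groups with edgeR 4.0.16 (R 4.3.3; filterByExpr, TMM factors, quasi-likelihood F-test, prior count 0.125), with Benjamini-Hochberg adjustment over all genes and calls at an adjusted p under 0.05. The SE is the log2 fold change divided by the square root of F. CPM use TMM-scaled library sizes, and CPM per kb divide by exon bases of GENCODE 29. Depth limits precision by counting error. Alternatives were DESeq2 1.42.0, relative log expression factors, no filter, only the groups compared, a replicate block, leaving out libraries and leaving out those that stood apart. The result of the list of other cap-n-collar and large MAF factors at 24 h is not reported here.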

Additional observations from a re-analysis of the deposited data

Results flagged for a closer look

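The response of NGLY1 to SHP1705 plus carfilzomib differed between the 24 h and 8 h sets, where time and set cannot be told apart. NGLY1 was the only member called, against 11.6% of all genes tested, and the call was lost without the 8 h library labelled DMSO 2. Its log2 fold change against DMSO was higher at 24 h than at 8 h by 0.4845 (SE 0.12, edgeR quasi-likelihood test, Benjamini-Hochberg adjusted p = 0.0151). The 8 h value rests on libraries whose labels HSPA1A goes against.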

How the results depend on the processing

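All 10 members stayed called for SHP1705 plus MG132, against DMSO and against MG132, in every alternative run that kept more than 1 library in each group compared. The fit without the 4 libraries that carried POSTN, chosen after seeing the data, kept 1 SHP1705 and 1 MG132 library. Its calls for SHP1705 alone and for the interaction are therefore not counted here. The MG132 interaction went to 8 calls with DESeq2 and with no filter, both without NGLY1. At 24 h, carfilzomib against DMSO kept 2 of its 3 calls with only the groups compared, without NFE2L3. The other changes, apart from those with 1 library left out, concern the carfilzomib set at 8 h as labelled. Carfilzomib against DMSO gave 5 calls, 7 with DESeq2, 8 with only the groups compared and 0 with the replicate block. It gave 9 without both libraries that stood apart, also chosen after seeing the data. That choice left every labelled group of the set wholly high or wholly low in HSPA1A, so counts without both libraries follow from it. SHP1705 against DMSO gave 0 calls, 2 with no filter and 9 without both libraries. The combination against carfilzomib gave 0, 3 with no filter and 7 without both. The interaction gave 0, 4 with DESeq2, 5 with no filter and 10 without both. The difference between 24 h and 8 h gave 1 call, 2 with DESeq2, 4 with no filter, 2 with only the groups compared and 2 without both.

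With 1 library left out, counts ranged from 0 to 3 for SHP1705 and 8 to 9 for the interaction in the MG132 set. At 24 h they ranged from 2 to 4 for carfilzomib and 2 to 3 for the combination, each against DMSO. At 8 h they ranged from 0 to 3 for carfilzomib, 0 to 8 for SHP1705 and 0 to 9 for the interaction, and the difference between times ranged from 0 to 2. The causes were not tested. Same-numbered libraries did not all deviate together, so the numbers were not taken to pair them: r was over 0.1 in 1 of 18 pairs in the MG132 set, 4 of 18 at 8 h, all 3 pairs of combination and DMSO among them, and 1 of 18 at 24 h, and libraries matched best with their own number in 4, 0 and 9 of 12, the last a hint from the data and not from the design. The replicate block changed no other count of member calls. A fit of only the groups compared was not run for the interactions. Depth most limits DDI2, the member with the lowest level per kb in both sets described.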
